A study of Mus musculus with 273 samples.

Results

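miR-22 (mmu-mir-22) was followed as 1 of the 1226 miRNA hairpins counted in small RNA libraries of 4 mouse tissues. It was selected on its measured counts, since it ranks high in every tissue, so its levels and ranks, and the ratios between tissues, are given as a description with no test. Time of day, day of collection, library run and the relation between tissues of 1 animal played no part in that choice and were tested. All mice were wild-type males of the inbred C57BL/6J strain at 26 weeks of age, with no treatment named and no other genotype among the samples. Tissue was taken every 3 h over 36 h and gave 78 libraries of the right cortex, 46 of the right striatum, 72 of the hypothalamus and 77 of the liver. Zeitgeber time (ZT) is the collection time modulo 24 h, and the lighting schedule was not given in the sources used here. Each of the 79 animal codes in the labels occurs at 1 time point, and 42 animals gave all 4 tissues. Of these codes, 1 lacks the M of the prefix CRM that all others carry, and it was counted as an animal of its own. The groups of tissue and ZT held 2 to 12 libraries from separate animals.

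A miRNA is cut from a hairpin transcript, loaded into an Argonaute protein and pairs with messenger RNAs mainly through its seed, bases 2 to 8 from the 5′ end, which lowers their stability and translation. miR-22 is widely expressed and conserved among vertebrates, and its 3p arm is generally the one retained. It has been studied in liver for lipid and glucose metabolism and in brain for neuronal survival.

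The sequences below show the annotated mature arms of the hairpin that was counted, with capitals for the seed (RefSeq, GRCm38.p6, plus strand).

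mmu-miR-22-5p: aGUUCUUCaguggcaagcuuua

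mmu-miR-22-3p: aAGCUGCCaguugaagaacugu

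The 5p arm lies at chr11:75463734-75463755 and the 3p arm at chr11:75463772-75463793, both 22 bases long. The hairpin spans chr11:75463716-75463810 on the plus strand, 95 bases with a loop of 16 bases between the arms. It is printed to show that both arms fall in the 1 feature that was counted, here with the mature arms in capitals.

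miR-22 hairpin: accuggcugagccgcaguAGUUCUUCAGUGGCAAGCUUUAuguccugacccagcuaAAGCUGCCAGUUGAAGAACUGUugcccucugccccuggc

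Each count adds both arms, so the 3p and 5p products cannot be told apart. In the GENCODE M21 annotation of GRCm38 the hairpin lies within exon 2 of the noncoding host gene Mir22hg and within exon 2 of a transcript of Tlcd2. Among 1738 mature sequences in the RefSeq table outside chromosome 18, neither seed of miR-22 was shared with another miRNA (0 others for each arm) and neither mature sequence occurred a second time. This sets it apart from many abundant miRNAs, such as the let-7 and miR-30 families, whose members share a seed.

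Liver gave the largest share of its counts to miR-22, followed by cortex, striatum and hypothalamus. In liver the share ran from 5.26% through a median of 16.8% to 19.7%, with a mean of 16.9% ± 1.90 (SD, n = 77). In cortex it ran from 6.11% through 8.32% to 10.1%, with a mean of 8.44% ± 0.900 (SD, n = 78). The liver mean was 2.00 times the cortex mean, and all liver libraries but 1 lay above every cortex library. That one, ZT9 replicate 4 at 5.26%, lay below every cortex library. In striatum the share ran from 3.64% through 5.08% to 10.3%, with a mean of 5.34% ± 1.40 (SD, n = 46). In hypothalamus it ran from 2.73% through 3.42% to 4.07%, with a mean of 3.45% ± 0.325 (SD, n = 72). Neighbouring brain regions overlapped: 11 striatum libraries lay above the lowest cortex library, and 24 hypothalamus libraries lay above the lowest striatum library. Within animals, liver stood above cortex in 76 of 77, cortex above striatum in 43 of 45 and striatum above hypothalamus in 41 of 43. All 4 tissues stood in that order in 38 of 42 animals. In bulk tissue, fewer cells of a type and less RNA per cell cannot be told apart. Apart from 1 hypothalamus library, liver and brain libraries came from different library runs, described below. Liver against brain is therefore confounded with run.

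**Figure D1:**
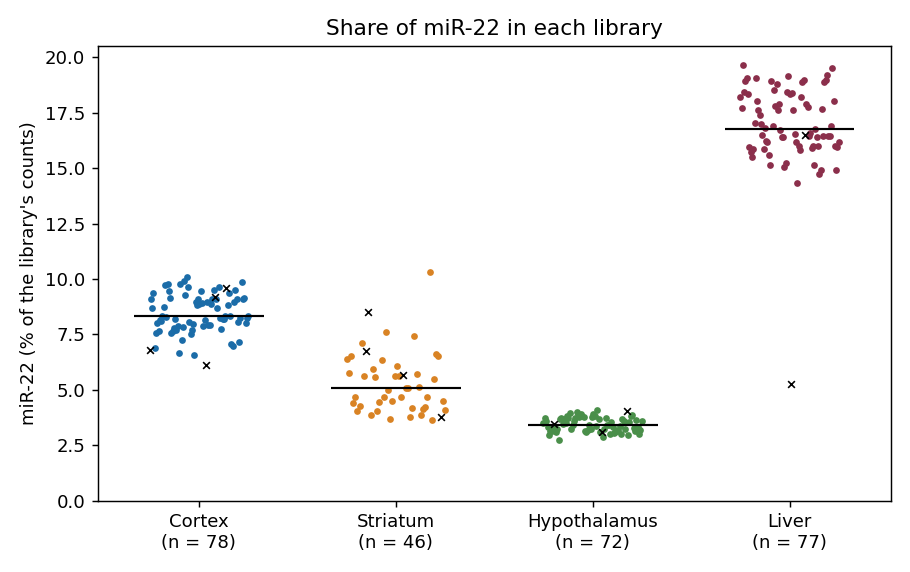
Each point is 1 library, the vertical axis is miR-22 as a percent of the library's counts, and the bar is the tissue median (16.8% in liver, 8.32% in cortex, 5.08% in striatum, 3.42% in hypothalamus). Crosses mark the 13 libraries whose miRNA profile stood apart from their tissue. The liver library at 5.26% is one of them.

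The share is precise at this depth. Library totals ran from 26341 to 5236177 counts, and miR-22 itself from 1489 to 930958. The half-width of the 95% Wilson interval was at most 0.279 percentage points, in the striatum library of 26341 counts (ZT9 replicate 6, 5.65%), and at most 0.0546 in liver. No molecular identifiers are described, so the intervals hold for counting error alone. The markers of the labelled tissues were present: the hepatocyte miRNA miR-122 averaged 21398 CPM (the count scaled to the library total) ± 1647 (SD) in liver and 1.09 to 2.82 CPM in the brain regions, while 6 of 8 neuronal hairpins had no count in liver. The whole lists were less clean. The 4 hepatocyte miRNAs listed summed to a median of 314589 CPM in liver and 2047 to 2253 CPM in the brain regions. The 8 neuronal hairpins summed to a median of 8.79 CPM in liver and 3140 to 21368 CPM in the brain regions. Of the 13 libraries that stood apart, 4 were cortex, 4 striatum, 3 hypothalamus and 2 liver. Some of them carried high sums of another cell type's miRNAs: the choroid plexus pair miR-204 and miR-211 reached 41876 CPM in cortex ZT0 replicate 1, where the cortex median was 4891. The 8 epithelial miRNAs reached 29969 CPM in cortex ZT15 replicate 1, where the median was 1207. Such sums were not confined to the libraries that stood apart. In striatum the choroid plexus pair reached 104998 CPM, and at most 34869 CPM in the striatum libraries that stood apart.

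Ratios between tissues depended on how libraries were scaled. With TMM scaling, which assumes that most miRNAs are unchanged, the log2 ratio was -2.92 ± 0.04 (SE) for cortex over liver, 0.66 ± 0.04 for cortex over striatum and 1.34 ± 0.04 for cortex over hypothalamus. With library totals the cortex over liver ratio was -1.003, the value that the shares give. The median of all 414 miRNAs in that contrast was 1.31 with TMM and 3.23 with library totals, so every liver ratio is relative to that shift. The 3 ratios between brain regions moved less, from 0.53 to 0.73 for cortex over striatum across the scalings, filters and library sets tried.

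By mean share miR-22 ranked 2 in both cortex and liver, 4 in striatum and 5 in hypothalamus, out of 1226 hairpins. Only miR-127, from the imprinted Dlk1-Dio3 region, stood above it in cortex, with 17.4% ± 2.04 (SD). miR-30a, an abundant miRNA of brain and liver, followed it in cortex with 7.97% ± 0.827, and miR-22 was the higher of the pair in 50 of 78 libraries. In striatum it stood between miR-30a (6.61% ± 1.53) and miR-125a (4.66% ± 0.972), a relative of the worm miRNA lin-4. In hypothalamus it stood between miR-30a (4.16% ± 0.485) and miR-410 (2.33% ± 0.208), and it was above miR-410 in 72 of 72 libraries. In liver miR-192, a hepatocyte miRNA, stood above it in every library with 29.1% ± 2.30, and miR-148a followed with 9.62% ± 0.779. miR-22 was second in 76 of 77 liver libraries and sixth in the other, where miR-148a was higher. Within cortex libraries its rank was 2 in 42, 3 in 20 and 4 in 16. Neighbours in rank thus changed places between libraries in cortex and striatum, as did miR-22 and miR-30a in hypothalamus, where miR-22 was the higher in 17 of 72.

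The hairpins among the 10 most abundant of all 4 tissues were 3, namely miR-22, miR-30a and miR-27b, a miRNA studied in lipid metabolism and angiogenesis. The first 5 of each tissue had in common only miR-22 and miR-30a. miR-30a held 7.36% ± 0.682 (SD) in liver and 7.97% ± 0.827 in cortex, close to each other, while miR-22 had 2.00 times the share in liver. These ranks describe deposited counts. How reads matching several hairpins were counted was not given in the sources used here, and some hairpins of multi-copy miRNAs were low: miR-103-1 averaged 2.09 CPM in cortex, against 1174 CPM for miR-107, which shares its seed family.

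Time of day was the main question of the series. No daily rhythm of miR-22 was called in any tissue, and the widest range of sizes that remain possible was in striatum. In cortex the median share was 8.12% at ZT0, 8.04% at ZT3, 8.01% at ZT6, 8.85% at ZT9, 8.79% at ZT12, 8.59% at ZT15, 8.60% at ZT18 and 8.72% at ZT21. The 8 groups overlapped: the widest, ZT6, ran from 6.56 to 10.1%, and the narrowest, ZT21, from 8.03 to 9.87%. From trough to peak the fitted 24 h curve spanned a log2 ratio of 0.06 ± 0.04 (SE, n = 78; edgeR adjusted p = 0.986), and the joint 95% region reached up to 0.17, or 12.4%. For comparison, 0.254% of the 393 miRNAs tested in cortex passed for rhythm. ZT0 to ZT12 pooled libraries of 0 to 12 h with those of 24 to 36 h, and later ZT held 15 to 21 h only. Day of collection was not a term in the rhythm fits of any tissue, so each curve and its limit mix it with time of day. The libraries of 0 to 21 h alone gave a ratio of 0.15 with an upper limit of 0.26 (unadjusted p = 0.00548, adjusted p = 0.146), and those of 15 to 36 h gave 0.04 with 0.15.

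Liver medians were 18.0% at ZT0, 16.7% at ZT3, 17.3% at ZT6, 16.6% at ZT9, 16.7% at ZT12, 16.2% at ZT15, 17.9% at ZT18 and 16.1% at ZT21. The highest and lowest of these differed by less than the range within ZT0, where libraries ran from 15.5 to 19.7%. The curve had a ratio of 0.09 ± 0.06 (SE, n = 77; edgeR adjusted p = 0.573), with an upper limit of 0.25, or 18.6%. Here 4.98% of 241 miRNAs passed. At 0 to 21 h alone the upper limit was 0.35, and without the 2 libraries that stood apart the ratio was 0.06 with a limit of 0.13.

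Hypothalamus medians lay between 3.26% at ZT12 and 3.75% at ZT6. At ZT15 the 5 libraries held 2.98, 3.25, 3.58, 3.67 and 4.03%. At ZT18 the 5 libraries held 3.14, 3.26, 3.56, 3.83 and 3.88%, and at ZT21 the 5 held 3.01, 3.19, 3.32, 3.60 and 3.63%. These 3 groups overlapped almost fully. The curve had a ratio of 0.05 ± 0.04 (SE, n = 72; edgeR adjusted p = 0.999) with an upper limit of 0.16, or 11.9%, where 0.263% of 380 miRNAs passed.

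Striatum had the widest spread. Its medians lay between 4.48% at ZT21 and 6.34% at ZT3, with no library at ZT15. The 2 libraries at ZT18 held 3.64 and 5.48%, and the 5 at ZT21 held 3.79, 4.09, 4.48, 6.54 and 6.60%. The curve had a ratio of 0.15 ± 0.20 (SE, n = 46; edgeR adjusted p = 0.998), and its upper limit of 0.64, or 55.9%, is the largest of the 4 tissues. In striatum 0.528% of 379 miRNAs passed. The ratio depended on the libraries used: it was 0.57 with a limit of 1.15 at 0 to 21 h (adjusted p = 0.709) and 0.03 with a limit of 0.47 without the 4 libraries that stood apart. Leaving out ZT3 replicate 4 alone gave 0.05, and leaving out ZT12 replicate 9 gave 0.31.

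**Figure D2:**
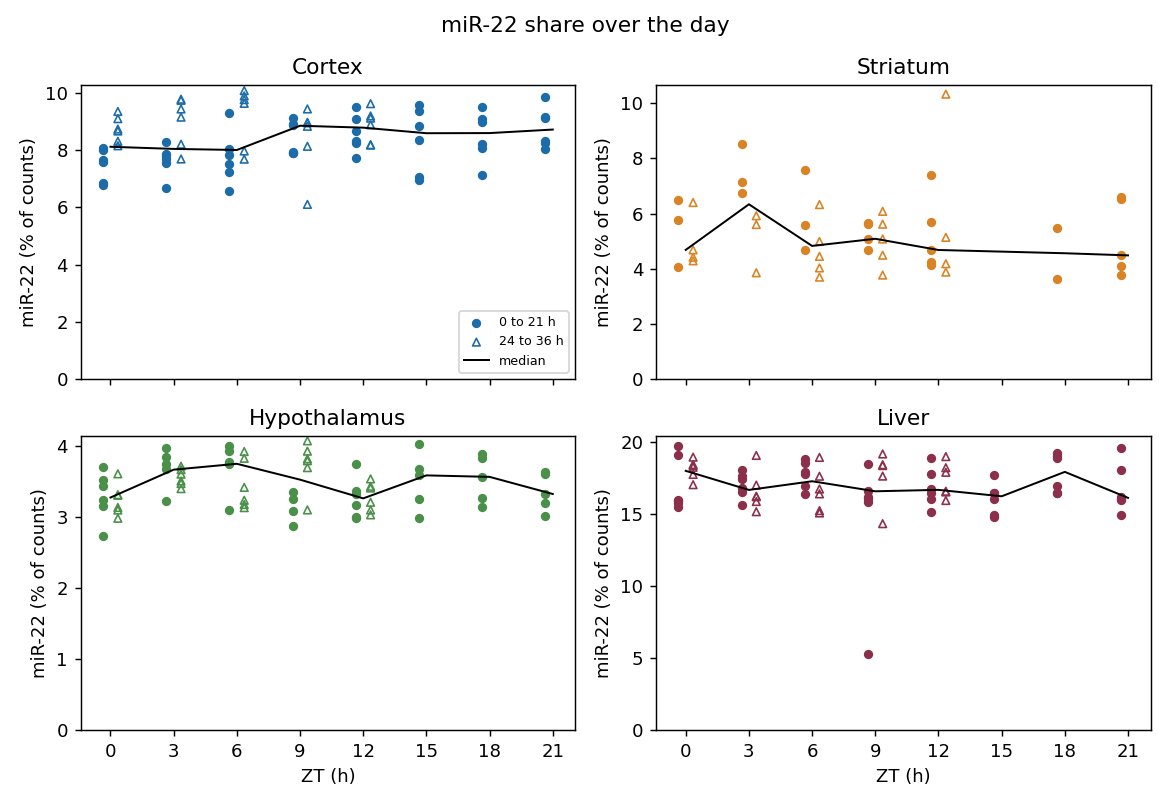
Each panel is 1 tissue, with ZT in hours on the horizontal axis and miR-22 as a percent of the counts on the vertical axis. Filled circles are libraries of 0 to 21 h, open triangles those of 24 to 36 h, and the line joins the medians of the ZT groups. The medians run from 8.01 to 8.85% in cortex and from 16.1 to 18.0% in liver, within the spread of single groups.

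A test of ZT as a factor, which fits no curve, also called miR-22 in none of the 4 tissues. The edgeR adjusted p was 0.939 in cortex and 0.762 in striatum, where 1.69 and 0.487% of miRNAs passed, and 0.996 in hypothalamus and 0.875 in liver, where 2 and 2.33% passed. Nor did the curves differ between tissues by a test of the difference itself. Over the 6 pairs the adjusted p ran from 0.548, for hypothalamus and liver, to 0.999, for cortex and hypothalamus. The shares of miRNAs that passed were 0.478% for cortex and striatum, 0% for cortex and hypothalamus (9 of 410 at unadjusted p under 0.05, and 0 called by DESeq2), 1.47% for cortex and liver, 0.744% for striatum and hypothalamus, 2.1% for striatum and liver and 0.964% for hypothalamus and liver. The fitted difference for hypothalamus and liver spanned 0.14 ± 0.07 on the log2 scale (SE) from trough to peak, and the largest that its joint 95% region allowed was 0.33.

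Times ZT0 to ZT12 were sampled at 0 to 12 h and again, in other animals, at 24 to 36 h. In cortex the miR-22 share was higher on the later passage. On the first passage it ran from 6.56% through a median of 7.90% to 9.52% (n = 30), and on the second from 6.11% through 8.96% to 10.1% (n = 30). The groups overlapped, but the median of the second was the higher at each of the 5 ZT, by 1.09 percentage points at ZT0, 1.55 at ZT3, 2.02 at ZT6, 0.496 at ZT9 and 0.496 at ZT12. On the TMM scale the second passage was higher by 0.11 ± 0.03 log2 (SE, n = 60), or 7.91%, with an edgeR adjusted p = 0.00691. This was one of many such calls: 30.7% of 398 miRNAs passed in cortex, 70 higher and 52 lower on the second passage. miR-22 was the 49th by adjusted p, and 10 of the 122 called changes were smaller than its own.

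**Figure D3:**
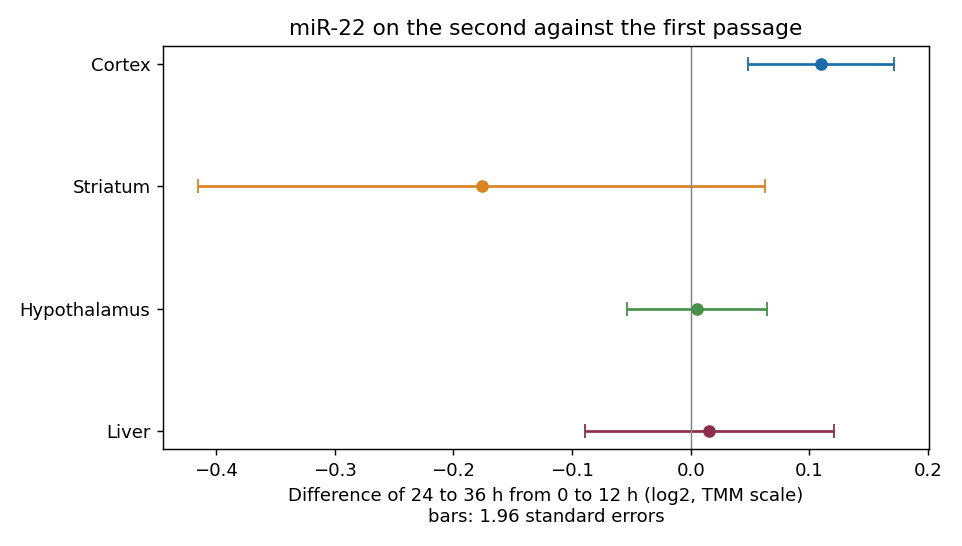
Points are the log2 difference of the second passage (24 to 36 h) from the first (0 to 12 h) for miR-22 in each tissue on the TMM scale, and bars are 95% intervals from the standard error. The cortex interval, from 0.05 to 0.17, lies above 0, and those of the other 3 tissues include 0.

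The passages were spread unevenly over library runs, which moved with the miR-22 share in cortex. Runs 1 to 4 held 11 of 30 first-passage libraries and 18 of 30 second-passage libraries. Within runs 1 to 4 the median was 8.87% on the first passage and 9.40% on the second, and within runs 5 to 9 it was 7.81% and 8.17%. With run as a term the difference was 0.11 ± 0.03 log2 (edgeR adjusted p = 0.0228). A permutation test of the log2 share within runs gave a difference of 0.12 (p = 0.00457). Without libraries that stood apart, which left 57 in this comparison, it was 0.11 ± 0.03 (edgeR adjusted p = 0.000934). Cortex library totals also tended to be higher on the second passage, and the log2 share moved with the log2 total (Pearson r = 0.54). Depth was not a term in these fits, so its part in the passage difference was not tested.

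The other tissues gave no such call. In striatum the second passage had a median of 4.68% and the first 5.63%, a difference of -0.18 ± 0.12 log2 (SE, n = 39; edgeR adjusted p = 0.538). Its second-passage median was the lower at each of the 5 ZT, with differences from -0.02 to -1.53 percentage points. The fitted difference was -0.28 without ZT12 replicate 9 and -0.10 without the libraries that stood apart. In hypothalamus the medians were 3.42% and 3.36%, a difference of 0.005 ± 0.03 (n = 57; edgeR adjusted p = 0.993). In liver they were 17.6% and 16.7%, a difference of 0.02 ± 0.05 (n = 59; edgeR adjusted p = 0.941). In each of these tissues 0% of miRNAs passed with edgeR, while 50, 4 and 10 had an unadjusted p under 0.05 and DESeq2 called 0, 0 and 1.

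Whether the passage difference itself differed between tissues was tested for the 6 pairs, a test added after the cortex result was seen. None passed with edgeR and TMM scaling. Striatum differed from cortex by -0.29 ± 0.10 log2 (adjusted p = 0.055, where 11.4% of miRNAs passed). With the animal as a block, since the tissues came from the same mice, limma voom called it (-0.31, adjusted p = 0.0332), and so did edgeR with library totals (-0.30, adjusted p = 0.0375). Without the libraries that stood apart it was -0.18 (adjusted p = 0.268). Hypothalamus differed from cortex by -0.06 ± 0.04 (adjusted p = 0.368, 14.3% of miRNAs) and liver by -0.05 ± 0.06 (adjusted p = 0.701, 5.5% of miRNAs). Hypothalamus passed with library totals (-0.14, adjusted p = 0.0484) and not with the animal as a block (adjusted p = 0.370). The other 3 pairs had adjusted p of 0.492 to 1, where edgeR called 0% of miRNAs, with 48, 39 and 17 at unadjusted p under 0.05 and 0 in each called by limma voom.

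The labels number the libraries, and stretches of consecutive numbers that share 1 code (L followed by a digit) gave 14 runs, whose meaning is not stated. Runs 1 to 9 held brain libraries with 1 further hypothalamus library in run 10, and runs 10 to 14 held liver. In cortex the median share of each run was 9.11 to 9.35% in runs 1 to 4 and 7.68 to 8.17% in runs 5 to 9. In hypothalamus it was 3.64 to 3.82% in runs 1 to 4 and 2.73 to 3.31% in runs 5 to 10. In liver it was 18.8% in run 10, 17.6% in run 11 and 15.5 to 16.3% in runs 12 to 14. In striatum the 8 runs ranged from 4.23 to 6.51% with no such step. The boundary after run 4 was placed after the values were seen.

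**Figure D4:**
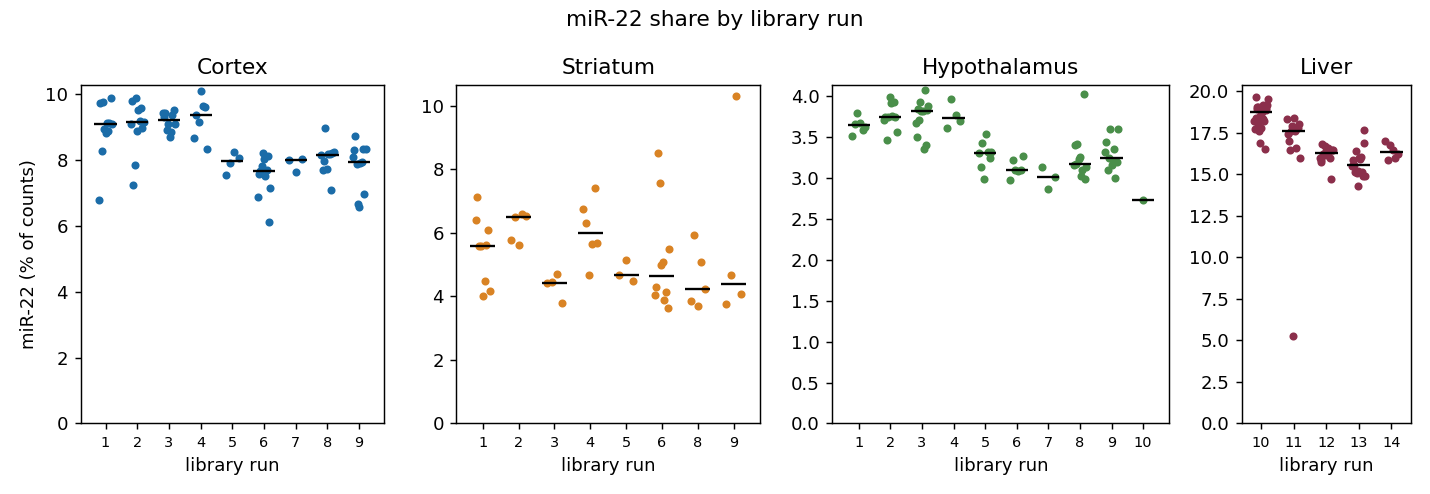
Points are libraries, bars are run medians, the horizontal axis is the library run and the vertical axis is miR-22 as a percent of the counts. The medians in cortex and hypothalamus are higher in runs 1 to 4 (9.11 to 9.35% and 3.64 to 3.82%) than in later runs, and liver run 10 (18.8%) is the highest of its tissue.

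A permutation test of the log2 share within ZT groups gave p = 1e-05 in cortex and in hypothalamus, the smallest that 100000 resamples can give, 0.0219 in liver and 0.108 in striatum. TMM scaling reduced these differences. The edgeR test of run with ZT as a factor gave adjusted p = 0.00144 in cortex (64.6% of miRNAs passed), 0.0669 in hypothalamus (69.5%), 0.633 in liver (24%) and 0.341 in striatum (39.4%). In liver the call turned on the libraries that stood apart, since the adjusted p was 0.000172 without them. Run differences were thus common to many miRNAs, and the ZT and passage tests above were repeated with run as a term.

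Depth moved with the share in cortex. Over its 78 libraries the log2 total and the log2 share had Pearson r = 0.54 and Spearman rho = 0.53, each with permutation p = 1e-05, the smallest possible here, and 4e-05 adjusted over the 4 tissues. Within runs r was 0.42 (p = 0.00016, adjusted 0.00064), and without the 2 libraries farthest from the median total it was 0.52. In hypothalamus r was 0.40 and rho 0.41 (permutation p = 0.00042 and 0.00031, adjusted 0.00084 and 0.00062; r = 0.46 without the 2 farthest libraries). Within runs r was 0.15 (p = 0.217, adjusted 0.289), so no relation was detected there, and the values with and without centring were not tested against each other. In liver r was 0.04 (p = 0.72, adjusted 0.90) while rho was -0.30 (p = 0.0087, adjusted 0.0116), and r without the 2 farthest was 0.05. Without the 2 libraries that stood apart r was -0.31 (p = 0.0076), and within runs it was 0.36 (p = 0.00455), so its sign rests on the libraries and centring used. In striatum r was -0.02 and rho 0.10 (p = 0.90 and 0.514, adjusted 0.90 and 0.514), r was 0.01 within runs (p = 0.937) and 0.00328 without the 2 farthest.

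The share of miR-22 did not detectably move together in tissues of 1 animal. The 6 pairs of tissues shared 43 to 77 animals, and their Pearson r over log2 shares ran from -0.09 to 0.30. The highest was striatum and hypothalamus (r = 0.30, rho = 0.29, n = 43, permutation p = 0.0543 and 0.0588, adjusted over the 6 pairs 0.326 and 0.353). Without the 2 animals farthest from the median r was 0.32 (p = 0.0403, adjusted 0.242), and with both tissues centred within their library runs it was 0.08 (p = 0.597). The other 5 pairs had r from -0.09 to 0.12 and rho from -0.17 to 0.12, with p from 0.307 to 0.828 for r and from 0.274 to 0.722 for rho. Adjusted over the 6 pairs, these were 0.684 to 0.828 and 0.603 to 0.722.

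The steadiness of miR-22 between libraries was compared with that of the other miRNAs that held at least 1% of the counts, as a description chosen after the values were seen. On the TMM log2 scale its SD in hypothalamus was 0.11, the smallest of 21 such miRNAs, whose median was 0.22. In cortex it was 0.13, the 5th smallest of 24. In striatum it was 0.37, the 15th of 24, and in liver 0.21, the 11th of 15. Without the 2 liver libraries that stood apart the liver SD was 0.08, the smallest of 15. By the coefficient of variation of the share, miR-22 was 9th of 24 in cortex, 17th of 24 in striatum, 5th of 21 in hypothalamus and 11th of 15 in liver. Without libraries that stood apart it was 7th in hypothalamus and 7th in liver, so the order rests partly on the scaling.

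The miRNAs whose TMM log2 CPM followed miR-22 most closely differed from tissue to tissue. These correlations are descriptions over libraries that share runs and depth, among miRNAs with a mean of at least 100 CPM. In cortex (n = 78) the nearest of 187 were miR-107 (r = 0.68), miR-879 (0.64), miR-708 (0.61), miR-540 (0.61) and miR-31 (0.60), and each had r of at least 0.57 within runs. miR-107 is encoded in an intron of a pantothenate kinase gene. In striatum (n = 46) they were miR-411 (0.84), miR-138-1 (0.82), let-7i (0.80), miR-674 (0.79) and miR-101b (0.79), of 189. miR-138 is a brain-enriched miRNA of dendrites. In hypothalamus (n = 72) the nearest of 194 reached only 0.45 (miR-378a), followed by miR-381 (0.42), miR-425 (0.42), miR-15a (0.41) and miR-879 (0.38). In liver (n = 77) miR-423 (0.83), miR-671 (0.81), miR-676 (0.78), let-7g (0.75) and miR-425 (0.74) came first, of 96. Without the 2 liver libraries that stood apart these were 0.38, 0.23, 0.31, 0.25 and 0.50. The liver values thus rest on those libraries.

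The wide striatum spread moved with the summed level of a list of neuronal miRNAs, a sum weighted toward miR-128. The striatum median of miR-128-1 alone was 5416 CPM, and r is given for the sum only. The summed level of 8 hairpins of miR-124, miR-9 and miR-128 ran from 3826 through a median of 8706 to 14604 CPM over striatum libraries, with none of the 8 at 0, and its log2 value had r = 0.59 with the TMM log2 CPM of miR-22 (n = 46; 0.54 without the 4 libraries that stood apart). The choroid plexus pair ran from 7783 through 14561 to 104998 CPM, with r = -0.44 (-0.42 without them). Their part in the striatum values was not tested. In cortex the neuronal list had r = 0.03, and -0.30 without the libraries that stood apart, and in hypothalamus -0.11 and -0.10. In liver the 6 blood miRNAs had r = -0.57 with miR-22, and -0.15 without the 2 libraries that stood apart.

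The neighbouring hairpins on chromosome 11 had another distribution. On one side the nearest is miR-3971, which starts 87.6 kb beyond miR-22 and averaged 0.300 CPM in cortex and 0.00321 in liver. On the other is miR-132, an activity-regulated miRNA of neurons, 290 kb away, with miR-212 just beyond it. In cortex miR-132 averaged 12131 CPM ± 2510 (SD), against 29.1 ± 8.02 in liver, with striatum (5827 ± 1903) and hypothalamus (3219 ± 582) between them. Across the brain regions it thus ranked as miR-22 did, cortex first and hypothalamus last, while liver was the lowest for miR-132 and the highest for miR-22. On the second cortex passage miR-132 and miR-212 fell, by 0.24 and 0.22 log2 (edgeR adjusted p = 0.0106 and 0.000344), where miR-22 rose.

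A list of 11 hairpins studied in lipid and glucose metabolism set miR-22 beside other such miRNAs. By mean CPM 5 of the 11 were highest in liver: miR-122, the defining hepatocyte miRNA; miR-148a, which acts on the LDL receptor, with 96247 CPM ± 7791 (SD) there; miR-21a with 49545 ± 4921; miR-378a, encoded in Ppargc1b, with 12561 ± 1016; and miR-802 with 409 ± 148. The other 6 were highest in cortex, among them miR-33, encoded in Srebf2, with 43.9 CPM ± 11.3 in cortex and 15.9 ± 4.21 in liver. This split rests on library totals. With TMM scaling, 7 of the 10 members tested were called lower in cortex than in liver and 1 higher. Among all 414 miRNAs, 113 were called lower and 221 higher. The median log2 ratio of cortex over liver was -2.72 over the members and 1.31 over all miRNAs. miR-22 was above all 11 in each tissue. None of the 8 to 10 members tested in a tissue was called for a 24 h rhythm, where 0.254 to 4.98% of all miRNAs passed, or for ZT as a factor, where 0.487 to 2.33% passed. Among the differences in rhythm between tissues, miR-122 passed for hypothalamus and liver (1.73 log2 from trough to peak, edgeR adjusted p = 0.00258, where 0.964% of miRNAs passed). Its mean in hypothalamus was 2.82 CPM ± 6.74 (SD), too low to be tested for rhythm in that tissue alone. It entered the comparison through its liver counts, and its liver curve spanned 0.04 log2 (edgeR adjusted p = 0.635). The called difference thus rests on hypothalamus counts near the floor and is not read as a rhythm. On the second cortex passage 5 of the 9 tested members passed, where 17.6% of all miRNAs rose and 13.1% fell. miR-148a rose by 0.34 log2 (edgeR adjusted p = 0.000957), miR-378a by 0.21 (0.000344), miR-103-2 by 0.24 (0.0215) and miR-107 by 0.20 (0.0265), and miR-27b fell by 0.14 (0.0247). The median over the 9 was 0.04, against -0.01 over all miRNAs tested. The other 4 were miR-21a (0.04, adjusted p = 0.461), miR-33 (-0.04, 0.791), miR-34a (-0.23, 0.0511) and miR-802 (-0.20, 0.274). The count of miR-103-2 depends on how reads of its second copy were treated.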

How the data were processed

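Small RNA libraries of 273 tissue samples were analysed from 4 tables of counts. The authors deposited whole-number counts per library and hairpin. STAR 2.7.3a and HTSeq 0.10.0 are listed in the submitters' processing notes, with build GRCm38 (mm10). Trimming, the miRBase release and the handling of reads with several matches are not given in the sources used here. Per the labels' protocols, RNA was extracted with a miRNeasy kit and an enriched subfraction went into the libraries. The choice of miR-22, of every list and of the naming rule was made with earlier results of these data known. The rule named the 5 miRNAs most correlated with miR-22 in each tissue, its neighbours in rank and on the chromosome, those among the 10 most abundant everywhere, any with its seeds, and a metabolic list; further miRNAs were picked from their values. The tests of runs and of passage differences between tissues were also added then.

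Tests used edgeR 4.0.16 in R 4.3.3 (TMM, filterByExpr, quasi-likelihood F test) over all miRNAs, with Benjamini-Hochberg adjusted p under 0.05 as the threshold. Rhythm used a cosine and a sine of 24 h; sizes are log2 ratios of peak to trough. limma 3.58.1 (voom) and DESeq2 1.42.0 served as alternatives, and permutation tests were two-sided with 100000 resamples. The rhythm script was tested on simulated data. Descriptions used Python 3.11.15, numpy 2.4.6, pandas 2.3.3 and SciPy 1.17.1, and plots matplotlib 3.10.9. A library stood apart when its median Spearman correlation with its tissue lay more than 5 median absolute deviations below the tissue's median (13 libraries). Among 1214 pairs within groups no 2 libraries were identical, and the smallest chi-square per degree of freedom was 13.0. Totals ran from 26341 to 5236177 counts. RefSeq placed 1084 hairpins, and promoters were not used.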

Additional observations from a re-analysis of the deposited data

Results flagged for a closer look

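Of 52 groups of 4 to 10 libraries, 2 held a miR-22 share whose gap to the nearest library was large against the range of its group by Dixon's test at 95%, a test that chance passes in about 1 of 20 groups. Liver ZT9 replicate 4, of the 9 h time point, had 5.257%, where the other 5 libraries of that time point had 15.84 to 18.43%. It is one of the 2 liver libraries that stood apart. In it miR-451a, a red cell miRNA, stood at 6444 CPM, where the liver median was 794.5, and the 6 blood miRNAs summed to 8132 CPM, the highest of any liver library. miR-10a held 12.2% there and 4.83% in the median liver library, while miR-423 stood at 187 CPM, where the median was 712. Of 64 abundant miRNAs, miR-22 was the second lowest against its liver median, by -1.67 log2. The part of blood in this library was not tested.

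Hypothalamus ZT6 replicate 9, of the 6 h time point, had 3.101%, where the other 5 had 3.74 to 3.99%. It came from run 6 and the others from runs 2 to 4, and the median hypothalamus share of run 6 was 3.10%. The part of the run was not tested.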

How the results depend on the processing

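No rhythm, ZT or rhythm-difference result of miR-22 changed its side of the threshold under the other normalizations, tools, filters, run term or library sets, with 1 exception. In hypothalamus a permutation test of the log2 share over ZT groups without the libraries that stood apart gave a spread of 0.16 (p = 0.0368), and with run as a term 0.08 (p = 0.523). The cortex passage difference kept its call in 10 of 10 alternatives, from 0.10 to 0.16, and leaving out each library in turn gave 0.08 to 0.12. None of the other leave-one-out fits changed a call.

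The replicate numbers of the titles did not mark animals, since 2 of 77 shared numbers had 1 animal code. As a replicate block they changed no call of miR-22: the cortex passage difference was 0.13 ± 0.03 (adjusted p = 0.00588), with 65 miRNAs called in place of 122. With the animal as replicate block (limma voom), the passage difference of striatum from cortex passed at -0.31 (adjusted p = 0.0332), and with library totals at -0.30 (0.0375). That of hypothalamus from cortex passed with library totals at -0.14 (0.0484). No other rhythm difference or passage difference changed its call under the animal block.

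The run result changed most. In hypothalamus the spread of run means passed at 0.43 with library totals (adjusted p = 2.92e-09), 0.20 without libraries that stood apart (0.0249), and 0.43 and 0.42 by permutation of the log2 share with and without them (p = 1e-05). In liver it passed at 0.24 with library totals (adjusted p = 0.00442), 0.11 without those libraries (0.000172), and 0.24 and 0.24 by permutation (p = 0.0219 and 1e-05). The cause was not tested. Depth correlations became 0.15 (hypothalamus) and 0.36 (liver) within runs, and -0.31 (liver) without libraries that stood apart.

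Without the other 4 leading miRNAs in the denominator the mean share was 34.5% in liver, 13.4% in cortex, 8.94% in striatum and 6.31% in hypothalamus. Per hairpin base the rank was 3 in cortex and 4 in hypothalamus. With RLE factors the log2 ratio was 1.07 for cortex over hypothalamus and -3.82 for hypothalamus over liver. With library totals the liver ratios were -1.003 (cortex), -1.66 (striatum) and -2.30 (hypothalamus).

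Over the alternatives the number of miRNAs called ran from 65 to 157 for cortex passage. For rhythm it was 1 to 8 (cortex), 0 to 4 (striatum), 1 to 61 (hypothalamus) and 8 to 25 (liver). For ZT it was 2 to 26, 0 to 4, 1 to 27 and 6 to 33. For run in liver it was 62 to 121. For the passage difference from cortex it was 26 to 48 in striatum, 27 to 80 in hypothalamus and 11 to 36 in liver. Counting error was widest in the striatum library of 26341 counts, and in cortex the share moved with depth.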

Other observations

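The striatum library with the highest miR-22 share, ZT12 replicate 9, held 10.3%, against a striatum median of 5.08%, and miR-22 ranked 2 in it. It did not stand apart by the correlation rule and held 1499475 counts. Among its 141 abundant miRNAs, miR-146a (886 CPM, median 354), miR-301a (2959, median 1307) and miR-153 (6170, median 2760) lay furthest above their striatum medians, with miR-22 next. miR-331 (107 CPM, median 465) lay furthest below. Its share lay above the highest cortex library (10.1%).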
